A study of Mus musculus with 2 samples.

Results

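Ion channel and neurotransmitter receptor genes were taken as the protein-coding genes of GENCODE vM21 (mouse genome GRCm38) whose symbols begin with Kcn (potassium channels), Scn (sodium channels), Cacna (calcium channel pores and α2δ subunits), Gabr (GABA-A receptors), Gria, Grik or Grin (ionotropic glutamate receptors) or Chrn (nicotinic acetylcholine receptors), or with Grm and a number (metabotropic glutamate receptors). The rule found 186 genes among 21951 protein-coding genes. It also took in Scnm1, which encodes a splicing factor, and Grina, which encodes a protein associated with NMDA receptors, and neither is a channel or receptor subunit. SRCAP was mapped by CUT&RUN in SYAT cells, a line of CGR8 mouse embryonic stem cells with the tag YPet-AID knocked in at the end of both Srcap alleles and stable OsTir1, the receptor through which auxin degrades the tagged protein. The cells were routinely kept in auxinole, which blocks OsTir1. There was 1 library made with an antibody against GFP, which recognises the YPet tag, and 1 made with an antibody against SRCAP itself, each from 100000 cells, and the treatment of the individual libraries is not given in the labels. The lists hold 28718 peaks (GFP antibody) and 28167 peaks (SRCAP antibody), each with a score whose meaning is not stated, a minimum of 13 and a median of 47 in both lists. Read depth is unknown and neither antibody has a replicate, so intervals below cover counting error over genes or peaks only, genes are not replicates, and no test between antibodies was possible.

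SRCAP is the ATPase of a remodelling complex that replaces histone H2A in nucleosomes with the variant H2A.Z, mostly around transcription start sites (TSS). The genes described here encode the proteins that carry currents across the membranes of neurons, muscle and gland cells: pores for potassium, sodium or calcium, auxiliary subunits that tune those pores, and receptors that open or signal when a transmitter binds. Most of them are used in differentiated excitable cells, many carry CpG-rich promoters, many are long, and in cells that are not neurons a number of neuronal genes are held silent by the repressor REST at a DNA element called RE1.

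A gene was said to have a promoter peak where the midpoint of a peak lay between 1000 bp upstream and 500 bp downstream of any annotated TSS of that gene. With the GFP antibody 27 of the 186 channel and receptor genes had one (14.5%, 95% Wilson interval 10.2 to 20.3), where 35.0% of all protein-coding genes did. With the SRCAP antibody 42 had one (22.6%, 17.2 to 29.1), against 35.6% of all protein-coding genes. Both lists placed a peak at the promoter of 17 genes (9.14%, 5.78 to 14.1; 27.0% of all protein-coding genes), and either list did at 52. In each list, then, promoter peaks were less frequent at these genes than over all protein-coding genes, which here and below include them, and the interval for these genes ended below the value for all genes. The overlap of the lists was also counted within the genes with a promoter peak. Of the genes with a SRCAP promoter peak, 40.5% (27.0 to 55.5) had a GFP promoter peak too, against 75.8% over all protein-coding genes, and of those with a GFP promoter peak 63.0% (44.2 to 78.5) had a SRCAP promoter peak, against 77.2%. The interval of the first share ended below the value for all genes, and that of the second held it.

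The 17 genes with a promoter peak in both lists were spread over several families. Scn2a, an α subunit of the neuronal voltage-gated sodium channel, had the highest pair, with scores of 139 (GFP) and 192 (SRCAP). Chrnb1, the β1 subunit of the nicotinic receptor of muscle, followed with 109 and 169. Kcnt2, a sodium-activated potassium channel, had 64 and 135, and Cacna1g, a pore of T-type calcium channels, 76 and 60. These 4 genes had scores above the median of 47 in both lists, as did Scnm1 (122 and 97) and Kcnj2 (60 and 96), an inward rectifier that sets the resting potential of heart and muscle cells. The Scnm1 window is shared with the promoter of its neighbour Lysmd1, so its peaks cannot be assigned to 1 of these genes.

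The remaining 11 had at least 1 score at or below 47. Kcne3, an auxiliary subunit, had 84 (GFP) and 47 (SRCAP), Kcnh2, the pore of the cardiac rapid delayed rectifier, 54 and 47, and Scnn1a, a subunit of the epithelial sodium channel, 43 and 122. The inward rectifiers Kcnj10 of glia, Kcnj3 of G-protein-gated channels and Kcnj8 of ATP-sensitive channels had 40 and 53, 44 and 34, and 53 and 27. Chrna9, a nicotinic subunit of hair cells, had GFP peaks of 25 and 81 at separate TSSs and a SRCAP peak of 30 that overlapped the stronger one. Grina had 38 and 29, Cacna2d2, an α2δ subunit, 28 and 89, and Gabrg1, a γ subunit of GABA-A receptors, 22 and 60. Kcnip3, which encodes a calcium-binding partner of Kv4 channels, had 34 in each list, but at different TSSs, 39174 bp (GFP) and 282 bp (SRCAP) from the 5′ end of the gene. The peaks of both lists therefore overlapped at 16 of the 17 genes. Neither antibody gave the higher score throughout.

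**Figure D1:**
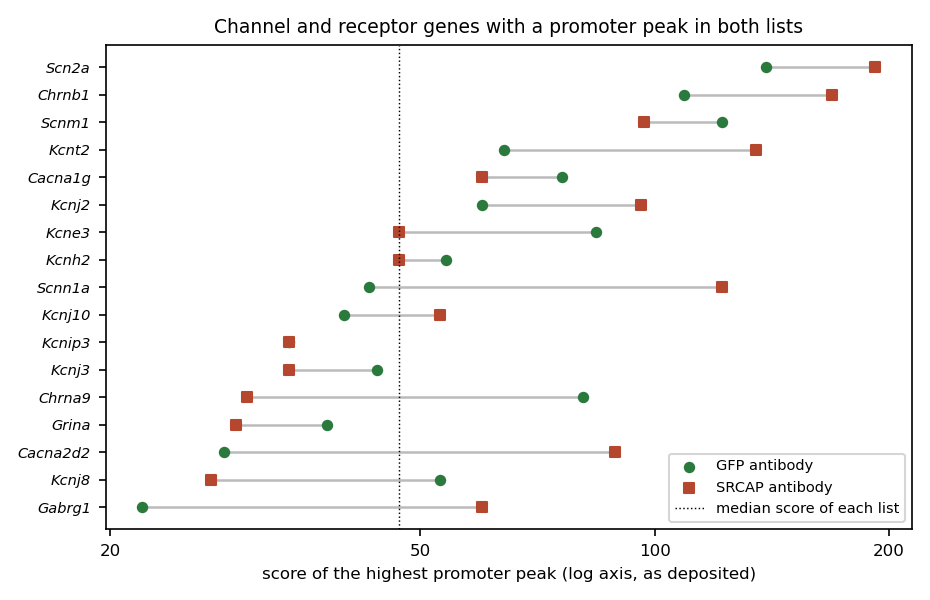
Score of the highest promoter peak (log x axis) of each of the 17 channel and receptor genes with a promoter peak in both lists, for the GFP antibody (circles) and the SRCAP antibody (squares), joined by a grey line; the dotted line is the median score of 47 in each list. The genes are ordered by the lower of their scores, and 6 of them, from Scn2a with 139 and 192 to Kcnj2 with 60 and 96, lie above the median with both antibodies.

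The sequences that both lists shared at the strongest promoters are given with their composition for the 5 highest pairs whose overlap held no untranslated exon. They are GRCm38, 5′ to 3′ on the strand of the gene, with searched motifs in capitals.
Scn2a (chr2:65668479-65668673, plus strand): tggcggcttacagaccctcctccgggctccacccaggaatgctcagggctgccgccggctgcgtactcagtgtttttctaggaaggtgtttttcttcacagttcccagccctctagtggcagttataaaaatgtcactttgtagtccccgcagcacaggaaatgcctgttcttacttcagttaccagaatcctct
Chrnb1 (chr11:69795303-69795577, minus strand): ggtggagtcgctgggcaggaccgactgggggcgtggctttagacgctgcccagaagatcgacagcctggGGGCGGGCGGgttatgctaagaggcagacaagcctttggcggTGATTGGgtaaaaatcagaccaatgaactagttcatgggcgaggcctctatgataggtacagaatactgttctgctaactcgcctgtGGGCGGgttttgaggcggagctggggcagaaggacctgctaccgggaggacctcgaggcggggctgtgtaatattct
Kcnt2 (chr1:140245504-140245785, plus strand): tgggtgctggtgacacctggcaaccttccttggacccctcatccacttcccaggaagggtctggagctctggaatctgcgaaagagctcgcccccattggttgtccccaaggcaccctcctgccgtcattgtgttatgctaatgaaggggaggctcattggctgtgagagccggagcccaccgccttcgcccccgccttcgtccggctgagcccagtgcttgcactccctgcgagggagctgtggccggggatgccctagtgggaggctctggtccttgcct
Cacna1g (chr11:94474432-94474675, minus strand): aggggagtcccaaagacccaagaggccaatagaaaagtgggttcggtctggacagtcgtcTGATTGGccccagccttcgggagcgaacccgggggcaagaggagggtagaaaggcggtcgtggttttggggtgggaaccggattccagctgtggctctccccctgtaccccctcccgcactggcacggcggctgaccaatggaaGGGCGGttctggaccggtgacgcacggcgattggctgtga
Kcnj10 (chr1:172340886-172341067, plus strand): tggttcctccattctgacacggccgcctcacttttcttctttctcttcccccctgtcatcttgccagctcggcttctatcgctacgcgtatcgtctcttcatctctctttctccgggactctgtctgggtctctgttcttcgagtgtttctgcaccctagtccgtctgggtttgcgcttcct
The Scn2a overlap lies in an intron of the full-length gene, with midpoints at -128 (GFP) and -109 bp (SRCAP) from an internal TSS, 47787 to 47806 bp from the 5′ end, and held 6 CpG and none of the searched motifs. That of Chrnb1 lies in an intron, 478 to 503 bp from the 5′ end, and held 15 CpG, a pair of overlapping GC boxes, a further GC box and an NFY match. The Kcnt2 and Cacna1g overlaps lie upstream of the genes, with midpoints at -516 (GFP) and -513 bp (SRCAP) and at -356 and -389 bp from the TSS and with 11 and 16 CpG, and the Cacna1g overlap held a GC box and an NFY match. The Kcnj10 overlap, with midpoints at -230 and -233 bp, held 11 CpG in 182 bp. No single motif was common to the 5 sequences. Searched on both strands were the GC box (GGGCGG), NFY (CCAATCA), ETS (CCGGAAGT), the NRF1 core (GCGCATGCG) and the ZNF143 core (CTACAATTC), and by name CTCF and RE1. In the 200 bp around the midpoint of promoter peaks, a GC box was present at 17 of 43 SRCAP peaks of these genes (39.5%, against 39.9% of promoter peaks of all genes) and at 6 of 29 GFP peaks (20.7%, 9.85 to 38.4, against 32.0%). NFY was present at 3 of 43 (6.98%, against 9.52%) and 3 of 29 (10.3%, against 7.89%), and ETS at 0 and 1, against 3.79% and 2.98%. The NRF1 and ZNF143 cores were found at none of these peaks and at 0.591% to 2.37% of promoter peaks of all genes. RE1 and CTCF were found in none of these 200 bp windows, against 0.0521% and 0.534% (GFP) and 0.116% and 0.797% (SRCAP) over all genes.

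At 25 of the 42 genes with a SRCAP promoter peak, only that antibody gave one (1894 of 7825 over all protein-coding genes). Among the highest were those at Scnn1g (score 128), the γ subunit of the epithelial sodium channel, Grm8 (81), an autoreceptor of glutamate terminals, Cacna1c and Scn9a (74 each), the pores of the cardiac L-type calcium channel and of a sodium channel of pain neurons, and Chrne and Kcnab2 (67 each), whose windows are shared with 4930544D05Rik and Nphp4. At 10 of the 27 genes with a GFP promoter peak, only that antibody gave one (1752 of 7683 over all protein-coding genes). These 10 were led by the calcium-activated potassium channels Kcnn1 (68) and Kcnn3 (61), the P/Q-type calcium pore Cacna1a (54) and Kcnj6 (47). The lowest scores in these groups were 18 at Kcna5 (SRCAP antibody) and 21 at Cacna1b and Kcnk1 (GFP antibody). Over all promoter peaks of channel and receptor genes the median score was 44 (GFP) and 47 (SRCAP), against 53 and 54 for promoter peaks of all protein-coding genes. Their median width was 268 and 262 bp, against 334 and 296 bp. Peaks at these promoters were thus lower in score and narrower at the median, and 55.2% (37.5 to 71.6) of the GFP peaks and 39.5% (26.4 to 54.4) of the SRCAP peaks overlapped the other list, against 68.8% and 68.4%.

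Many of these peaks were not at the start of the gene. Genes can have internal TSSs, and the median was 3 TSS positions per gene for channel and receptor genes and for all protein-coding genes. Of the promoter peaks of channel and receptor genes, 14 of 29 GFP and 15 of 43 SRCAP peaks lay at an internal TSS only. The matching share of promoter peaks over all genes was not counted. Examples in both lists were Scn2a, Kcnh2 (25986 to 26089 bp from the 5′ end), Chrna9 (41313 to 41363 bp) and Cacna2d2 (127145 to 127152 bp, in a coding exon), and the SRCAP peak of Kcnip4 lay 925151 bp into that gene. With the window at the 5′ end alone, a choice made after seeing the data, the genes with a promoter peak fell in number to 15 (GFP, 8.06%, 4.95 to 12.9; all genes 29.3%) and 27 (SRCAP, 14.5%, 10.2 to 20.3; all genes 29.9%), and those in both lists to 9. Relative to the nearest TSS of the gene, the median midpoint was at +11 bp (GFP) and -24 bp (SRCAP), against -128 and -91 bp for all genes. Of the promoter peaks, 51.7% (34.4 to 68.6) and 46.5% (32.5 to 61.1) lay downstream of that TSS, against 28.3% and 28.2%. By the median and by the share downstream, the promoter peaks of channel and receptor genes thus lay further downstream than those of all genes in both lists. The lower quartiles did not show this shift, at -262 (GFP) and -230 bp (SRCAP) against -266 and -215 bp. Within 250 bp of the TSS lay 58.6% and 67.4% of the peaks, against 67.1% and 74.5%.

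The lower share of promoter peaks was looked at by the CpG content of the promoter. The CpG ratio (observed over expected CpG, the highest over the coding TSSs of a gene, in 500 bp either side) had a median of 0.596 over these genes and 0.614 over all, and 48.9% of them, against 51.4% of all, exceeded 0.6. Among the 91 genes over 0.6, 13 had a GFP promoter peak (14.3%, 8.54 to 22.9) and 21 a SRCAP promoter peak (23.1%, 15.6 to 32.7), against 52.2% and 53.0% of all genes of that class. Among the 53 genes from 0.3 to 0.6, 13 (24.5%, 14.9 to 37.6) and 18 (34.0%, 22.7 to 47.4) had one, against 33.8% and 35.0%, and under 0.3 it was 1 and 3 of 42, against 4.52% and 4.49%. The distance from all genes was thus found at CpG-rich promoters, where the intervals did not overlap, while in the lower classes the intervals of these genes held the value for all genes. Over all protein-coding genes the share rose from class to class, and over channel and receptor genes the middle class was the highest in both lists, with intervals that overlap those of the highest class.

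**Figure D2:**
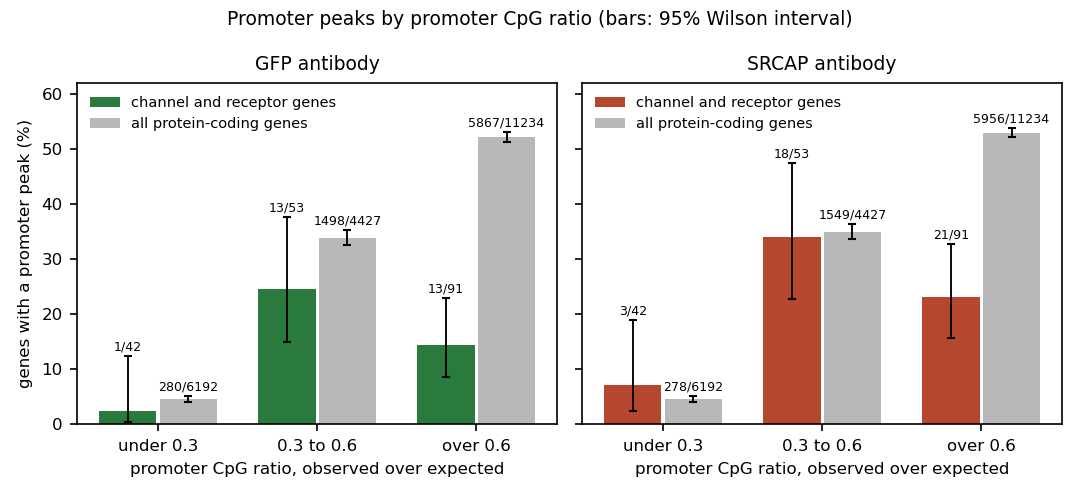
Percentage of genes with a promoter peak (y axis) in 3 classes of promoter CpG ratio (x axis) for each antibody; coloured bars are channel and receptor genes, grey bars all protein-coding genes, error lines 95% Wilson intervals and the fractions genes with a peak over genes in the class. In the class over 0.6 the coloured bars stand at 14.3% and 23.1% and the grey bars at 52.2% and 53.0%.

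By family, promoter peaks were unevenly spread. Families were set by gene symbol, so the name or role given for a family need not hold for each gene in it. Among potassium pores, the voltage-gated Kv genes, which repolarise action potentials, had them at 2 (GFP) and 3 (SRCAP) of 40 genes, while inward rectifiers had them at 6 and 5 of 15, with 4 in both lists (Kcnj2, Kcnj3, Kcnj8 and Kcnj10). The tandem-pore leak channels (Kcnk) had 1 and 3 of 14, the calcium- or sodium-activated channels 3 and 1 of 8, and the auxiliary subunits 2 and 7 of 17. The α subunits of voltage-gated sodium channels, which carry the upstroke of the action potential, had 2 and 3 of 10, their β subunits 0 and 1 of 4, and the epithelial sodium channel 1 and 2 of 3. Calcium pores had 3 and 2 of 10 and the α2δ subunits that traffic them 1 and 2 of 4. Most of these families are too small for their shares to be ordered. Of the receptors, nicotinic subunits had promoter peaks at 3 and 6 of 16 genes. GABA-A subunits, which form the main inhibitory chloride channels of the brain, had them at 1 and 2 of 19. Of the 19, 13 lacked any peak at promoter or gene body (68.4%, 46.0 to 84.6; 41.8% of all protein-coding genes). Among these were Gabra3, Gabre and Gabrq on chromosome X, where 78.0% of all protein-coding genes had none.

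The ionotropic glutamate receptors, the channels of fast excitatory transmission, had no promoter peak in either list: 0 of 4 AMPA, 0 of 5 kainate and 0 of 7 NMDA receptor genes, and 0 of 16 allows a share of up to 18.8%, taken as 3 counts of the total. Inside the gene bodies of these same 16 genes, 14 had at least 1 peak in either list (87.5%, 64.0 to 96.5; 32.2% of all protein-coding genes), with 21 GFP and 23 SRCAP peaks in 4.01 Mb. That is 5.23 per Mb (exact Poisson interval 3.24 to 8.00) and 5.73 per Mb (3.63 to 8.60), below the densities of all genes given below, and these genes are long. The exceptions without any peak were Gria3, which lies on chromosome X, and Grin3b. Metabotropic glutamate receptors, which signal through G proteins, had SRCAP promoter peaks at 3 of 8 genes (Grm3, Grm5 and Grm8, scores 40, 40 and 81) and no GFP promoter peak.

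**Figure D3:**
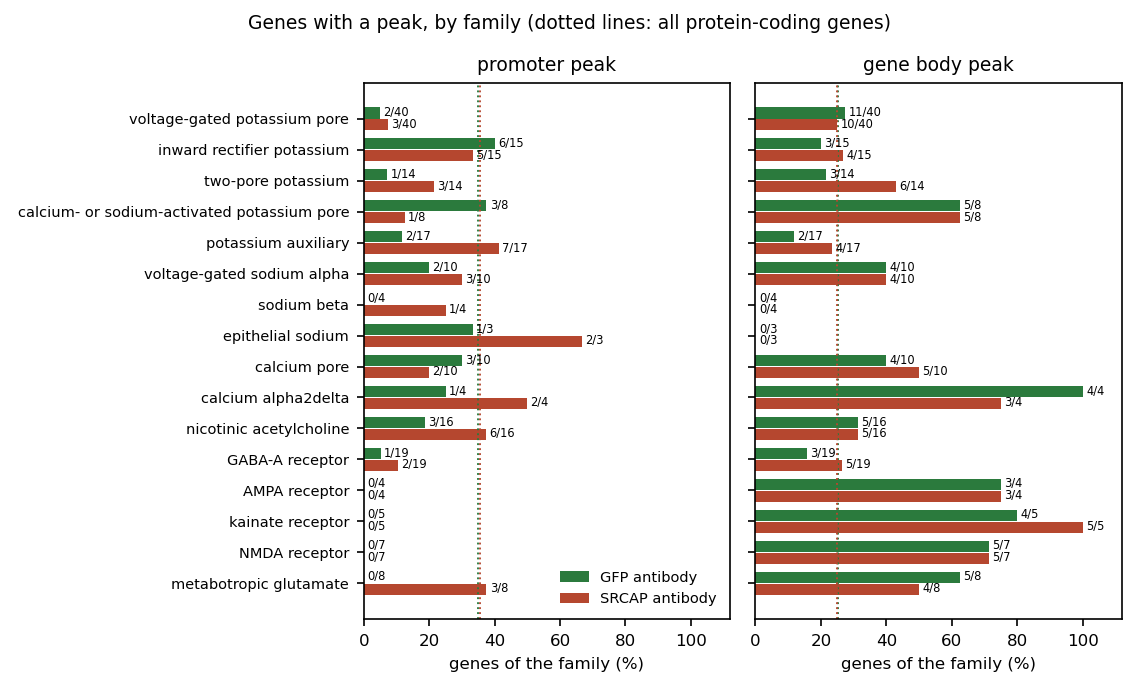
Percentage of the genes of each of 16 families (x axis) with a promoter peak (left) or a gene body peak (right), for the GFP antibody (green) and the SRCAP antibody (red), with the counts at the bars; dotted lines mark all protein-coding genes, 35.0% and 35.6% on the left and 25.3% and 25.0% on the right. AMPA, kainate and NMDA receptor genes have no bar on the left and bars of 71.4% to 100% on the right.

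Gene body peaks, those with the midpoint inside the gene but in none of its own promoter windows, were found at 61 genes with the GFP antibody (32.8%; 25.3% of all protein-coding genes) and 68 with the SRCAP antibody (36.6%; 25.0% of all). Channel and receptor genes are long, with a median of 45.6 kb against 17.4 kb, and per length the order turned. There were 124 GFP peaks and 128 SRCAP peaks in 25.4 Mb of gene body, or 4.89 per Mb (4.07 to 5.83) and 5.05 per Mb (4.21 to 6.00), against 10.3 and 9.94 per Mb over all protein-coding genes. By length class, the intervals lay clearly below the values for all genes only over 100 kb. There the density was 3.90 (GFP, 3.12 to 4.82) and 4.27 (SRCAP, 3.45 to 5.22) per Mb, against 7.89 and 7.74 over all genes of that length. From 20 to 100 kb it was 8.98 in both lists (5.81 to 13.3), against 13.3 and 12.6. That interval ended at about the GFP value and held the SRCAP value. Under 20 kb the density was 24.0 and 16.6, against 17.2 and 17.1, and the wide intervals held the values for all genes. The classes under 100 kb thus do not settle whether shorter genes differ from all genes. Most gene body peaks of channel and receptor genes, 88.7% and 89.8%, lay in introns. The matching share over all genes was not counted. The lists met at 62 of 124 GFP peaks (50.0%, 41.3 to 58.7) and 61 of 128 SRCAP peaks (47.7%, 39.2 to 56.3), and these intervals hold the 49.2% and 51.0% of all gene body peaks. A SRCAP peak that lies in 2 of these genes is counted in each, so the 128 are 127 separate peaks.

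**Figure D4:**
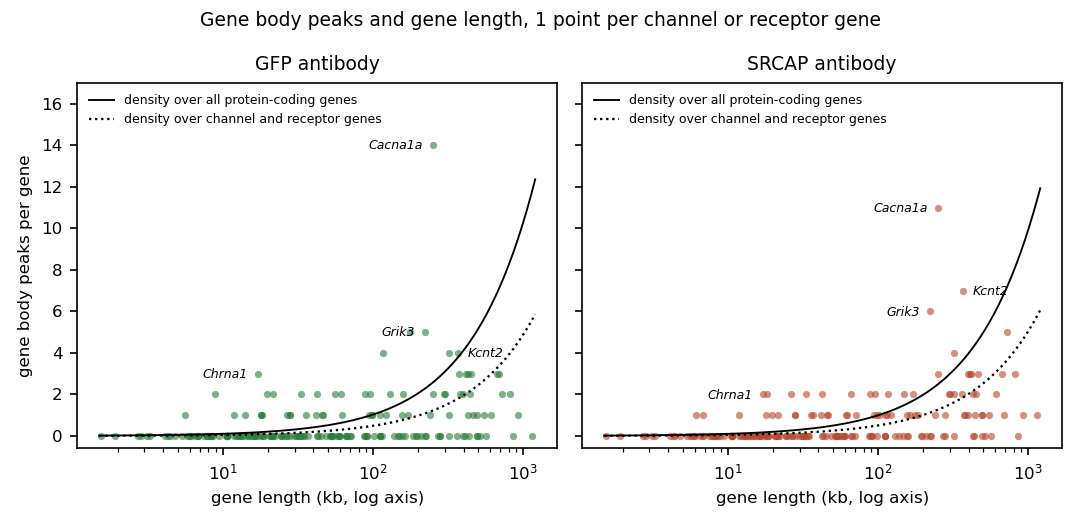
Number of gene body peaks (y axis) against gene length in kb (log x axis) for each channel or receptor gene and antibody; the solid line is the density over all protein-coding genes (10.3 and 9.94 per Mb) times the length and the dotted line that over channel and receptor genes (4.89 and 5.05 per Mb). Cacna1a, with 14 and 11 peaks, stands far above both lines.

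Cacna1a, the pore of the P/Q-type calcium channel that triggers transmitter release, had the most gene body peaks, 14 (GFP) and 11 (SRCAP), of which 6 overlapped, in 252 kb. The highest pair scored 197 and 146, and the shortest overlap was 16 bp. Cacna1a lies on chromosome 8, where all protein-coding genes had 20.8 and 24.5 gene body peaks per Mb, more than the 10.3 and 9.94 over all chromosomes, and the part of that chromosome in the count was not tested. By peaks in common to both lists, Kcnt2 and Kcnq1 came next. Kcnt2 had 4 and 7 peaks besides its promoter pair, all 4 of the GFP peaks overlapping SRCAP peaks, by 9 bp at the least. Its strongest intronic pair scored 187 and 218. Grik3, a kainate receptor subunit, had 5 and 6 peaks with 3 in common, all 3 in introns between 107922 and 119080 bp from the 5′ end. Kcnq1, the pore of the slow cardiac delayed rectifier, had 4 peaks in each list and all of them overlapped. The strongest of these, 101 and 97, lay at the promoter of Kcnq1ot1, the antisense RNA of the imprinted Kcnq1 domain, 190183 to 190266 bp into Kcnq1, and so at the start site of another gene.

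Genes with 2 shared gene body peaks included Cacna2d3 (2 GFP and 3 SRCAP peaks in all), Cacna2d4 (4 and 2, where 1 of the overlapping SRCAP peaks fell in a promoter window), Cacna1d (3 and 2), Chrna1 (3 and 2), Gabrg3 (3 and 3) and Kcnn2 (3 and 3). The shorter overlap in Cacna2d4 was only 1 bp. Among genes of at least 10 kb, the highest densities were those of short genes, which reach them with few peaks: Chrna1, the α1 subunit of the muscle nicotinic receptor, with 3 and 2 peaks in 17.1 kb, Grin2c with 6.22 and 12.4 per 100 kb, Kcnh4 with 10.6 and 5.30, Kcng1 with 10.5 and 5.26, and Chrna2 with 6.29 in both lists. At the other end, 78 of the 186 genes (41.9%; 41.8% of all protein-coding genes) had neither a promoter nor a gene body peak in either list. The longest of them were Kcnq5 (564 kb), Kcnd2 (514 kb), Kcnb2 (436 kb) and Kcnh1 (319 kb), all Kv pores, and Gria3 (278 kb). All 5 have promoters with a CpG ratio above 0.5, so these were not CpG-poor genes.

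**Figure D5:**
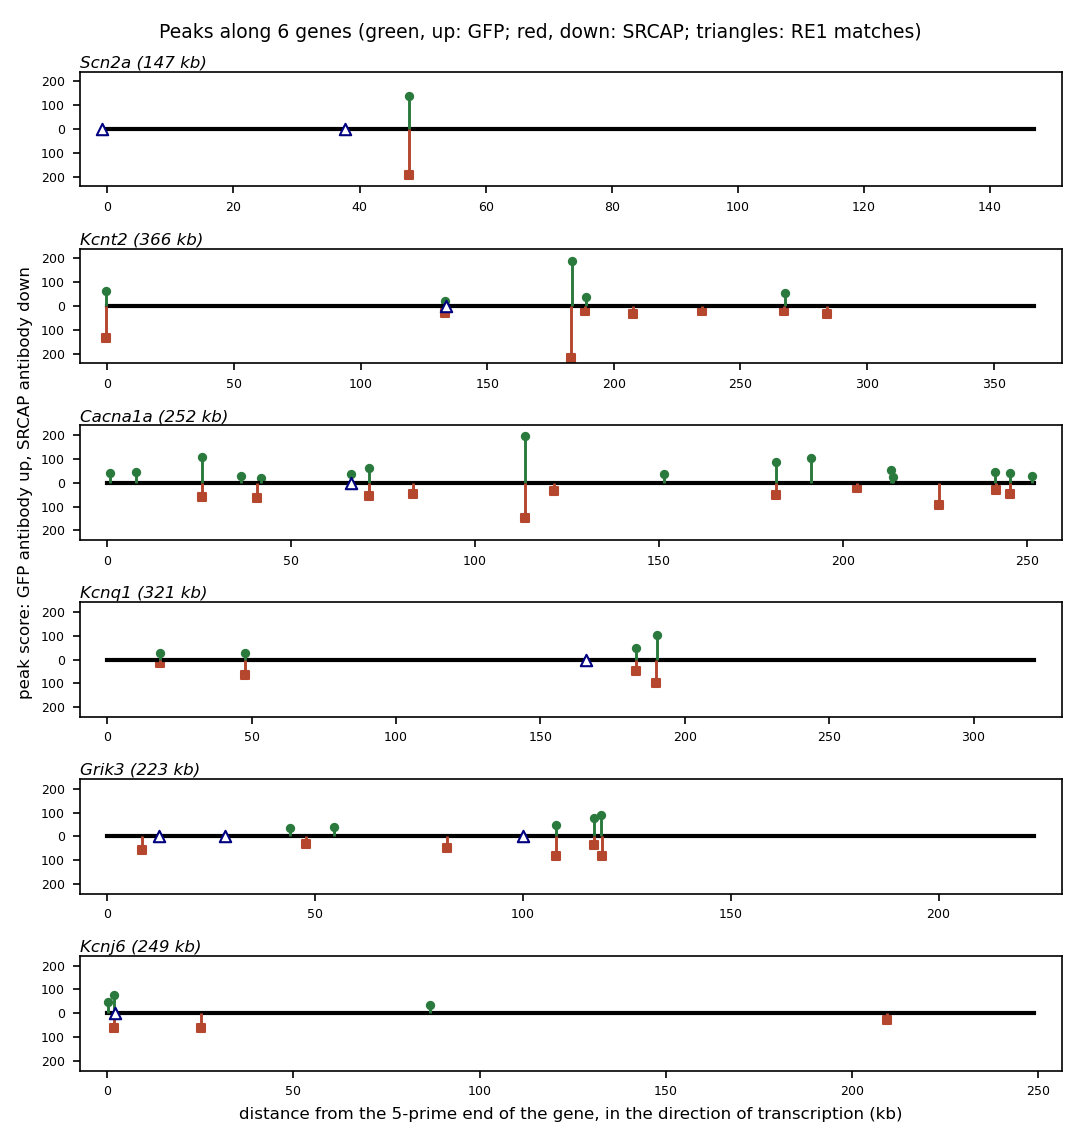
Peaks along Scn2a, Kcnt2, Cacna1a, Kcnq1, Grik3 and Kcnj6, each drawn from the 5′ end in the direction of transcription (x axis, kb); lines up show the score of GFP peaks, lines down that of SRCAP peaks, and triangles matches to RE1. Scn2a has a single pair, 139 and 192, inside the gene and away from both RE1 matches, and Cacna1a has peaks over its whole length.

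The gene body pairs with the highest scores of all were of a different make-up, which their sequences show. Those of Gria2 (600 and 682) and Kcnq3 (379 and 357) lay wholly in repeats as soft-masked in the RefSeq GRCm38.p6 genome, whereas that of Kcnt2 was 9.28% repeat. All 3 are intronic. The sequence of Kcnq3 is the central 300 bp of the overlap.
Gria2 (chr3:80747219-80747469, minus strand): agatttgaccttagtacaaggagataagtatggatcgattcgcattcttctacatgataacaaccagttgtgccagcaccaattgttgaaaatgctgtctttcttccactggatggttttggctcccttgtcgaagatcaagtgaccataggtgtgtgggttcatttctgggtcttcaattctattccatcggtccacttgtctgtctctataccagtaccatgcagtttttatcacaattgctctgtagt
Kcnq3 (chr15:66057730-66058029, minus strand): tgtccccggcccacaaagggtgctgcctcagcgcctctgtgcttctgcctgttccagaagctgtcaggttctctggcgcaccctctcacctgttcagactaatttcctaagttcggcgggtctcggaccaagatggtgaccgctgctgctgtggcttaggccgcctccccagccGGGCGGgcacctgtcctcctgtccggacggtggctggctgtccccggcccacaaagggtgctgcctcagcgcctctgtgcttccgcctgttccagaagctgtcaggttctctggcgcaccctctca
Kcnt2 (chr1:140429296-140429586, plus strand): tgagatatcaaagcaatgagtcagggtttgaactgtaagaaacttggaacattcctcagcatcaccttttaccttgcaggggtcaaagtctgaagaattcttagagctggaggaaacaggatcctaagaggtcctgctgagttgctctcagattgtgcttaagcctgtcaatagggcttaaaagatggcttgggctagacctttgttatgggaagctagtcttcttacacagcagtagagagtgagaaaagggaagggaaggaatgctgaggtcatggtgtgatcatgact
The study's methods keep only reads with a single match in the genome for ChIP-seq and CUT&Tag, whether this held for CUT&RUN is not given in the sources used here, and the part of repeats in these scores was not tested. The Gria2 sequence held 4 CpG, the Kcnq3 sequence 16 and a GC box, and the Kcnt2 sequence none. The pair of Grik2 (242 and 184) was also mostly repeat, 84.8% and 85.9%, as was the GFP peak of Gabrg3 with a score of 183 (75.2%). Repeats made up at least 50% of the length in 9 GFP (7.26%) and 13 SRCAP (10.2%) gene body peaks of these genes. They did so in none of the promoter peaks of these genes. In repeat content the pairs of Gria2 and Kcnq3 were thus not typical of the group. The matching shares over all genes were not counted.

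RE1, the element that REST binds, was more frequent in the promoter windows of these genes than over all genes. A match to its 16 bp consensus was present in a promoter window of 8 of the 186 genes (4.30%, 2.20 to 8.26), against 0.843% of all protein-coding genes, and in a promoter window or the gene of 34 (18.3%, 13.4 to 24.5), against 4.75%. The second share rises with gene length, and for CTCF matches it was also higher, 31.2% against 15.7%, while in promoter windows CTCF matches were found at 1.61% (0.550 to 4.63) of these genes, against 2.42%. These genes held 40 matches. Peaks of either list overlapped 7 of the 40 (17.5%, 8.75 to 31.9), against 47 of 1139 matches over all protein-coding genes (4.13%, 3.12 to 5.44) and 81 of 2163 in the genome (3.74%). By list, the overlap was 4 of 40 for each antibody (10.0%, 3.96 to 23.1), against 1.84% (GFP) and 3.60% (SRCAP), so that the interval for the SRCAP antibody lay just above the value for all genes. The counts are small and only 1 of the 7 sites was in both lists. That is 2.50% of the 40 (0.443 to 12.9), an interval that held the 1.32% over all protein-coding genes. Of the 7 sites, 6 are shown on the strand of the match, with 5 bp of flank and the match in capitals, to compare their cores.
Chrnb2 (chr3:89764453-89764478, minus strand): cggctTCAGCACCACGGACAGcgctc
Scn3b (chr9:40269739-40269764, minus strand): ttggcTCAGCACCACGGACAGtagcc
Cacna1b (chr2:24762079-24762104, plus strand): cgccgTCAGCACCACGGACAGctgcc
Kcnj6 (chr16:94995714-94995739, minus strand): tggttTCAGCACCAAGGCCAGagcaa
Cacna1a (chr8:84454742-84454767, minus strand): gacatTCAGCACCATGGCCAGcagcc
Kcnn3 (chr3:89647282-89647307, minus strand): atgctTTAGAGCCAAAGCCAGgagat
Of these, 3 (Chrnb2, Scn3b and Cacna1b) share the same 16 letters. Chrnb2, the main β subunit of neuronal nicotinic receptors, had its match 143 bp downstream of the nearest TSS, in an untranslated exon, under a SRCAP peak of score 53, and Scn3b, a sodium channel β subunit, had one at 64 bp under a SRCAP peak of 40. Cacna1b, the N-type calcium pore of nerve terminals, had it at 956 bp under a GFP peak of 61. The site in both lists was that of Kcnj6, a G-protein-gated inward rectifier, 1526 bp downstream of a TSS, with scores of 76 and 60. Cacna1a (GFP, 38) and Kcnn3 (GFP, 122) had their sites deep in introns, at +38970 and -15224 bp from the nearest TSS. Hence 4 of these 6 covered sites lay within 1526 bp downstream of a TSS of the gene.

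Sites close to a TSS were not all covered. No peak lay over, for example, the matches of Gria2 (-162 bp from the TSS), Grin1 (+70), Kcnt1 (+115), Kcnk12 (-598) or Scn2a (-799), and the strong Scn2a peak pair lay near another TSS. For comparison, CTCF matches in these genes were covered by a peak of either list at 11 of 88 (12.5%, 7.13 to 21.0), against 16.9% of those in all protein-coding genes. Of the 11, those with the highest scores were in Kcnj10 (124 and 93), Chrna9 (66 and 95) and Chrna2 (68 and 47), each in both lists. The difference from all genes seen at RE1 for peaks of either list was therefore not seen at CTCF matches.

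Some chromosomes stood apart. None of the 7 channel and receptor genes on chromosome X had a peak of any kind, which allows a share of up to 42.9%, and 78.0% of all protein-coding genes there had none. Chromosome 8 carried 8.90% (GFP) and 10.5% (SRCAP) of all peaks. Its 7 genes had 3 GFP promoter peak genes (Cacna1a, Kcnk1 and Kcnn1) and no SRCAP promoter peak gene, although 51.3% of all genes there had one. Without chromosome 8 the shares were 13.4% and 23.5% and the gene body densities 4.25 and 4.57 per Mb, so the values over the whole group did not rest on it.

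Set beside other groups, the channel and receptor genes were not the lowest. Of 76 further channel and receptor genes outside the rule (among them Trp, Clcn, P2rx, Hcn and glycine receptor genes), 16 (21.1%) had a GFP promoter peak, 27 (35.5%) a SRCAP promoter peak and 14 both, and they had 4.87 (3.57 to 6.50) and 6.46 (4.94 to 8.30) gene body peaks per Mb, against 4.89 and 5.05 over the channel and receptor genes of the rule. Of 100 developmental regulators, such as Pax, Lhx, Nkx, Tbx, Irx and Fox genes, 23 and 29 did and 13 in both lists, with 11.9 and 14.8 gene body peaks per Mb. Olfactory receptors, a class used in sensory neurons, had promoter peaks at 3 and 4 of 1135 genes. In each of the first 3 groups more genes had a promoter peak with the SRCAP antibody than with the GFP antibody, while over all protein-coding genes the shares were 35.0% and 35.6%.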

How the data were processed

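The peak lists were deposited by the authors, 1 per antibody, each with a whole-number score per peak whose meaning is not given in the sources used here. The submitters' processing notes name STAR, Picard and MACS2 with no versions and the builds mm10 and dm6; the control, read counts and removal of problem regions for CUT&RUN are not given in the sources used here, so depth is unknown. The study's methods describe CUT&RUN for the SRCAP antibody, while for the GFP antibody only the labels name this assay.

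Genes and 141767 transcripts were those of GENCODE vM21, and sequence was the RefSeq GRCm38.p6 genome. A promoter ran from 1000 bp upstream to 500 bp downstream of any TSS of the gene and a peak was placed by its midpoint. Gene body peaks lay in the gene outside these windows. Peaks were called shared at an overlap of at least 1 bp. Percentages have 95% Wilson intervals and densities exact Poisson intervals. With 1 library per antibody no test was made. Named genes were those with promoter peaks in both lists, the 10 with the most GFP gene body peaks shared with the other list, the 5 of at least 10 kb with the densest gene body peaks and the 5 longest without a peak. Printed promoter sequences are the highest-scoring overlaps free of exon bases outside the coding sequence, a condition added after seeing the data. The members and lists were chosen with earlier results of these data known. Alternatives are given in the closing section. Counting was tested on simulated peaks. Python 3.11.15, numpy 2.4.6, pandas 2.3.3, scipy 1.17.1 and matplotlib 3.10.9 were used. Values of some single members are not reported here; they remain in the counts.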

Additional observations from a re-analysis of the deposited data

How the results depend on the processing

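Of 36 alternative values, 23 stayed within the interval of the reported value (or within 1.5 times it for counts) and 13 moved. With peaks at or above the median score only, promoter peaks were found at 7.53% (GFP) and 12.4% (SRCAP) of the channel and receptor genes and in both lists at 8. Gene body peaks fell to 2.09 and 2.44 per Mb. The shared part of gene body peaks rose to 77.4% (64.5 to 86.5) and 62.9% (50.5 to 73.8). It also rose over all protein-coding genes, to 70.1% and 70.3%, which these intervals hold. With 2500 bp either side of the TSS the promoter values were 23.1%, 30.6% and 31 genes. With the window at the 5′ end of the gene only they were 8.06%, 14.5% and 9 genes. Under each of the promoter and density alternatives the value for these genes stayed below that for all protein-coding genes. With promoter windows of another gene left out, the GFP share was 14.0% (9.72 to 19.7), against 25.1% of all genes. The SRCAP share was then 19.9% (14.8 to 26.2), an interval that held the 25.6% of all genes. The 5′ end window, the omission of other genes' promoter windows and the demand that promoter peaks of both lists overlap were chosen after seeing the data. Neither replicates nor read depth were available, so a missing peak cannot be told from one below detection, and no difference between the antibodies was tested.
No paired analysis was possible because the data hold a single library for each antibody.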
